A study of Mus musculus with 7 samples.

Results

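The genes described here are the mouse zinc finger genes whose symbol is Zfp followed by a number of 600 or above, a late-numbered set that the naming rule picks without regard to any measurement. The rule took protein-coding genes on chromosomes 1 to 19 of the GENCODE vM21 annotation (mm10 build) and gave 170 genes of 20722. A promoter was taken as the 500 nt on either side of every annotated transcription start site (TSS). A member with another member within 200 kb was called clustered (107 genes, in 28 clusters) and the others were called isolated (63 genes). Chromosome 7 carried 35 members, chromosome 17 carried 22, chromosome 4 carried 20, chromosome 8 carried 16 and chromosome 2 carried 15.

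Most proteins of this family read DNA with a row of C2H2 zinc fingers, each finger a short loop held by a zinc ion between cysteines and histidines. Many also carry a Krüppel-associated box (KRAB), which binds the corepressor Trim28 (KAP1), and through it the histone methyltransferase Setdb1, to silence retrotransposons and imprinted regions. Such genes arose by tandem duplication, so that neighbours in a cluster often have near-identical sequence. DNase-seq measures how easily the nuclease DNase I cuts chromatin, and the promoters of expressed genes are usually among the most readily cut sites.

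The study digested nuclei of differentiated, immortalised mouse podocytes, the epithelial cells of the kidney filter, and sequenced the released DNA as single reads. NG cells were kept in 5 mM glucose, HG+NT cells in 25 mM glucose with 50 nM of a nontargeting mimic, and HG+miR-93 cells in 25 mM glucose with 50 nM of a mimic of the microRNA miR-93, each for 36 h after growth arrest in reduced serum. NG cells received no mimic as far as the labels say, so that glucose and transfection cannot be told apart between NG and HG+NT. There were 2 replicates per condition and 1 input of DNase-digested genomic DNA, and the deposited peaks form 1 pooled list per condition, so the spread between replicates is not known and no comparison below carries a test.

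Each promoter was described by 2 quantities. The fold is the density of DNase fragments at a peak's summit over the local input mean, as the peak caller MACS2 writes it. MACS2 adds the same constant to both terms, so the fold is not their plain ratio. The highest fold among a promoter's peaks was ranked from 0 to 100 among 21835 genes of each list (the fold percentile). The pileup is the number of fragments at that summit, scaled to the depth of the input, which was solved from the fold and its p-value and is given with a 95% interval from the exact Poisson limits of its fragments, which holds counting error alone. Where 3 values are given for a gene or a class, they stand for NG, then HG+NT, then HG+miR-93. In nuclei taken in bulk, a promoter open in fewer cells and a promoter less open in each cell cannot be told apart.

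The peak lists were long and shallow. The 3 lists held 1036304, 846027 and 900109 peaks, with a median of 6, 10 and 12 fragments per summit before scaling. Only 73, 94 and 1 of these peaks reached a −log10 q of 2. All 170 members overlapped a peak in each list, so the presence of a peak says nothing about them. A −log10 q above 0 was listed for 1 member in NG (Zfp846) and 2 in HG+NT (Zfp664 and Zfp654), and for 0 in HG+miR-93. Of all genes, 1.91%, 2.31% and 0.116% had such a value, against 0.588%, 1.18% and 0.0% of members. The cells' label was only partly visible at promoters: of the podocyte genes, Synpo stood at the 91.1, 96.3 and 71.4 percentile, Podxl at 90.4, 13.6 and 75.9, Cd2ap at 44.8, 81.6 and 34.5, and Nphs1, which encodes nephrin, at 9.989, 55.0 and 64.1. Ptprc, a leukocyte gene, stood at 23.6, 2.26 and 5.65, and Pecam1, an endothelial gene, at 62.7, 68.3 and 87.8.

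The promoters of some members are near-copies of another member's promoter, and the sequences below are shown because they set what a short read can resolve. RefSeq promoters (250 nt before to 50 nt after a start, GRCm38.p6) were found for 144 of the 170 members. Among their 10296 pairs the median identity was 45.3%, but 30 pairs were at least 80% identical and 11 at least 90% identical, and both genes of all 30 pairs lay on 1 chromosome. These pairs involved 21 members, 19 clustered and 2 isolated (Zfp966 and Zfp970). The promoters of Zfp966 and Zfp967 on chromosome 2 were 100% identical and those of Zfp968 and Zfp973 99.7% identical. Their last 100 bases before the RefSeq start are printed 5′ to 3′ on the strand of the gene, with a CCAAT box, the letters bound by NF-Y, in capitals.
Zfp966 (chr2:175931101-175931200, minus strand): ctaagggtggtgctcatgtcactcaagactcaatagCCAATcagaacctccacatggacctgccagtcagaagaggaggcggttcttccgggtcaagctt
Zfp967 (chr2:176520904-176521003, plus strand): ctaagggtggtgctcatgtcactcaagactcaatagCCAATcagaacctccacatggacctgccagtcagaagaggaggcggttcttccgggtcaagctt
Zfp968 (chr2:175372336-175372435, plus strand): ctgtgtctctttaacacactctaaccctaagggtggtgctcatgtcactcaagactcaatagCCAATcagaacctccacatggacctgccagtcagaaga
Zfp973 (chr2:176670422-176670521, plus strand): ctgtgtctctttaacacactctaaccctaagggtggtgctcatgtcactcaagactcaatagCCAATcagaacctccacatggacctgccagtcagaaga

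The second set comes from the largest cluster, 13 members over 1073 kb of chromosome 17. The E-box CACGTG is read alike on both strands and bound by factors such as USF1 and MYC. It was present in the RefSeq promoters of 8 of these 13 genes (61.5%). Of all clustered members 13.7% held it (13 of 95, these 8 included), against 4.08% of isolated members and 8.12% of 15680 promoters in all. In each of the 8 it was part of the longer run CACGTGACC on one strand, a run held by 1.52% of all promoters and by 0 isolated members, and looked for after the sequences had been seen. Zfp942 and Zfp943 start from opposite strands 0.088 kb apart, as do Zfp944 and Zfp758 at 0.053 kb, and each pair shares a single stretch. The capitals mark the E-box, and in Zfp994 also a CCAAT box read on the opposite strand. Bases within annotated genes were left out.
Zfp820 (chr17:21845841-21845910, minus strand): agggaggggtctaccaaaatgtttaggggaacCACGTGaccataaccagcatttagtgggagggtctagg
Zfp942 (chr17:21962481-21962550, minus strand): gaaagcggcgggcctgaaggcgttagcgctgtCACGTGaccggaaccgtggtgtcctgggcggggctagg
Zfp994 (chr17:22225737-22225806, minus strand): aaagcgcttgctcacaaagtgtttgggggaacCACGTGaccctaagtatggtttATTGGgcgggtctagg
Zfp944 (chr17:22361401-22361452, minus strand): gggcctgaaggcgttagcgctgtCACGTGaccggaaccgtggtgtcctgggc
Zfp946 (chr17:22424160-22424201, plus strand): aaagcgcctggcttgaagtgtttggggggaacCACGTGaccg

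Of the other letters searched on both strands, the CCAAT box was in 60.4% of the 144 member promoters (66.3% of the clustered and 49.0% of the isolated) against 38.4% of all promoters. The TATA box (TATAAA) was in 2.78% against 12.9%. The GC box GGGCGG, bound by Sp1, was in 43.8% against 48.6%, the ETS-factor site CCGGAAG in 18.1% against 12.5%, and the AP-1 site TGANTCA in 4.86% against 7.14%. The cyclic AMP response element TGACGTCA was in 0.694% against 2.48%, the NRF1 core GCGCATGCG in 3.47% against 2.54% and the YY1 site AAGATGGCG in 1.39% against 2.03%. The members' promoters were thus richer in CCAAT boxes and poorer in TATA boxes than promoters in all. These matches describe the letters of the window only, and sequence shared by copies is counted once for each copy.

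Clustered members had lower promoter fold percentiles than isolated ones in each list. The median for the clustered genes was 46.4, 32.4 and 36.5. The median for the isolated genes was 54.1, 48.4 and 52.5, against 50.9, 50.7 and 51.0 over all genes. The isolated median lay 7.71, 16.1 and 16.03 points above the clustered one, with members of either kind spread over nearly the whole scale. With folds taken over the median promoter of each chromosome this gap was −0.20 points in HG+miR-93, and with neighbours sought within 100 kb it was −0.44 points in NG, so its direction did not hold under every choice. For all 170 members the lower quartile was 23.6, 18.7 and 19.8 and the upper quartile 70.4, 74.1 and 68.4. The 213 other Zfp genes had medians of 58.3, 48.4 and 49.8, and the 40 Zbtb genes, whose zinc fingers are joined to a BTB domain in place of a KRAB box, 72.0, 69.7 and 59.7. A fold percentile above 50 in all 3 lists was held by 11 of 107 clustered members (10.3%), 18 of 63 isolated members (28.6%) and 25.4% of all genes. One below 50 in all 3 lists was held by 38 clustered (35.5%) and 17 isolated members (27.0%), against 23.8% of all genes.

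The share of a promoter's 36-mers present once in the genome, 36 being the number of cycles read, moved with these levels. The median share was 87.7% for clustered members, 99.8% for isolated members and 100% for all genes. It was below 90% for 56 of 107 clustered (52.3%) and 12 of 63 isolated members (19.05%), against 15.3% of all genes. Clustered members with 90% or more single 36-mers (51 genes) had median fold percentiles of 56.3, 51.9 and 49.8. The isolated ones above that share (51 genes) had 57.3, 61.8 and 58.1, against 55.3, 55.0 and 54.9 for all 17554 such genes. Below it, the medians were 37.7, 28.6 and 32.3 for the 56 clustered members, 44.3, 25.3 and 27.2 for the 12 isolated ones, and 27.0, 28.6 and 27.2 for 3152 genes in all. Among promoters with little repeated sequence the clustered members were thus within 1 point of the isolated ones in NG and below them in the other lists. The part of repeated sequence in the difference between the classes was not tested.

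**Figure D1:**
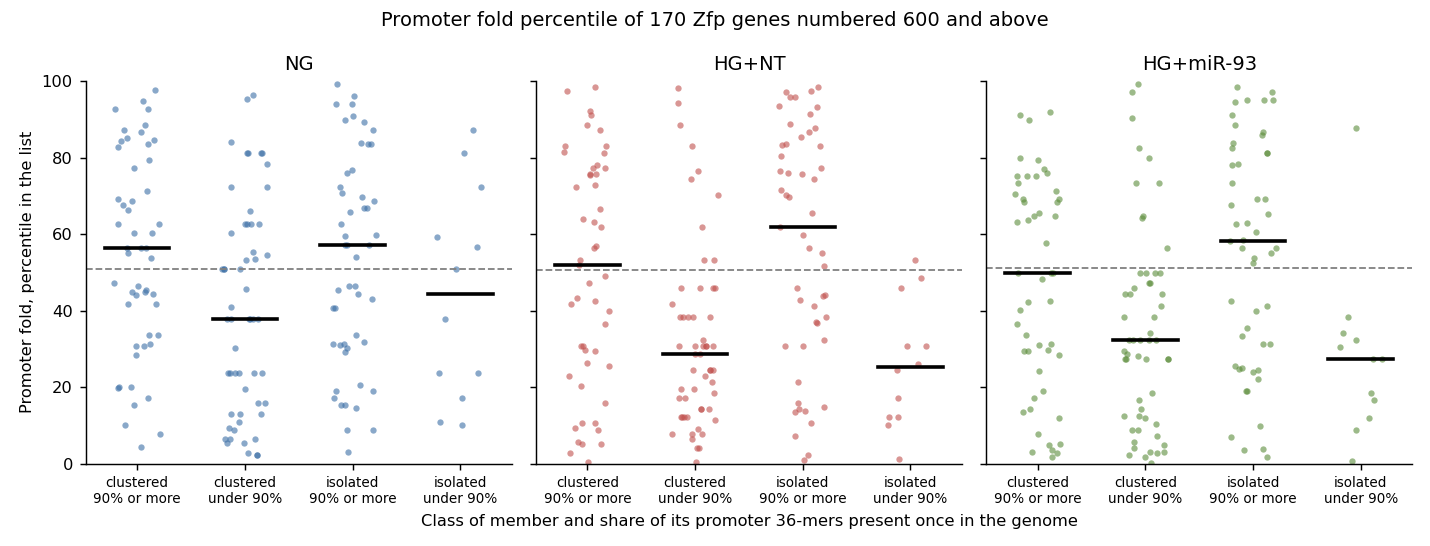
Promoter fold percentile (y axis, 0 to 100 within each list) of the 170 members, a panel per list, split by class and by whether 90% of the promoter's 36-mers are present once in the genome. Each point is a gene, the bar is the median of its column and the dashed line the median of all genes; clustered genes below 90% have medians of 37.7, 28.6 and 32.3.

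The pileup followed repeated sequence more closely than the fold did. The highest promoter pileup had a median of 8.49, 6.49 and 6.22 fragments for clustered members with 90% or more single 36-mers, and of 7.59, 6.23 and 6.02 for isolated ones. Below 90% it was 4.02, 3.12 and 3.11 for clustered members and 4.24, 2.60 and 2.82 for isolated ones, against 5.81, 5.19 and 5.05 for all genes. By this quantity the clustered members with mostly single sequence were no lower than the isolated ones in any list. Across the 170 members the Spearman coefficient between the share of single 36-mers and the rank by pileup was 0.557, 0.645 and 0.614, and with the fold percentile it was 0.272, 0.368 and 0.3001. Over 20706 genes the first of these was 0.311, 0.326 and 0.343. Genes of a cluster are not independent points, and the fragments and the input pass through the same alignment step. The ratio of observed to expected CpG dinucleotides, a measure of CpG islands, moved with the pileup rank of the members about as much, with coefficients of 0.591, 0.641 and 0.5995, and did so over all genes too, with 0.675, 0.656 and 0.646. Its median was 0.468 for members and 0.519 for all genes, and the median GC content was 50.9% and 53.7%.

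**Figure D2:**
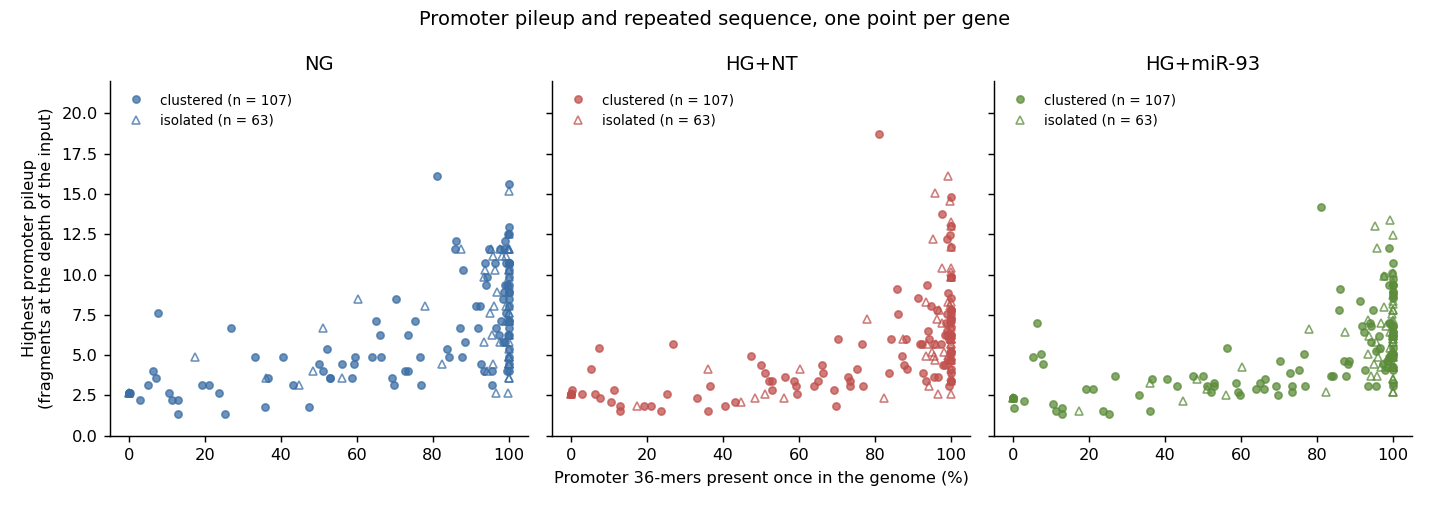
Highest promoter pileup (y axis, fragments at the depth of the input) against the share of promoter 36-mers present once in the genome (x axis, %) in each list. Each point is a gene, filled for the 107 clustered and open for the 63 isolated members; those with few single 36-mers lie low in each panel, and most of the high ones are near 100%.

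At the far end, 12 members had fewer than 10% of their promoter 36-mers present once, and 6 had none. These 6 were Zfp968, Zfp965, Zfp969, Zfp966, Zfp967 and Zfp973 of chromosome 2, among them the genes with the near-identical promoters printed above. All 6 lay under a single peak, 1600551 bp wide in NG and HG+miR-93 (175158829 to 176759379) and 1587130 bp wide in HG+NT. Its summit held 6, 10 and 12 fragments before scaling, which is a pileup of 2.68, 2.60 and 2.33. The fold was 1.52, 1.48 and 1.37 over an input at its genome mean of 1.43 fragments. The summit lay 196864 nt from the nearest start of Zfp968 in NG, so the value listed for these genes is not a measurement of their promoters. Altogether 14 members shared 5 peaks in each list, the others being the pairs Zfp935 and Zfp934 on chromosome 13, Zfp942 and Zfp943, Zfp944 and Zfp758 on chromosome 17, and Zfp668 and Zfp646 on chromosome 7. The members of each shared peak have 1 value between them, yet each gene was counted in the medians and counts of this report. With each shared peak counted once in a class (100 clustered and 62 isolated values), the median fold percentile was 50.9, 37.4 and 35.3 for clustered and 55.3, 50.0 and 53.2 for isolated members, so the isolated median stayed the higher in each list.

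Summits elsewhere were mostly at the promoter. The strongest peak had its summit within 500 nt of a start for 115, 111 and 108 members (67.6%, 65.3% and 63.5%), and in all 3 lists for 74 members. By class this was 67, 70 and 60 of the 107 clustered and 48, 41 and 48 of the 63 isolated members, and 12921, 12203 and 12017 of 20706 genes in all. Summits more than 10000 nt away belonged to 17, 17 and 18 members, of which 13, 14 and 15 were clustered. Such summits belonged to 3.65%, 4.11% and 4.05% of all genes, and 6 of the members with one are the genes under the single peak of chromosome 2.

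By protein, the members with a pattern of conserved KRAB residues, called KRAB genes here, had lower median fold percentiles than those without it. The pattern was found in 103 of 168 complete proteins, in 78 of 105 clustered (74.3%) and 25 of 63 isolated members (39.7%). A KRAB box that departs from the pattern was counted as absent. The median fold percentile of these 103 genes was 44.3, 30.9 and 32.3. It was 65.7, 61.8 and 57.7 for the 65 genes without the pattern. Among promoters with 90% or more single 36-mers the medians were 45.3, 41.8 and 36.5 for 45 KRAB genes and 65.7, 69.8 and 60.5 for 57 genes without. Below 90% they were 37.7, 26.5 and 29.96 for 58 KRAB genes and 63.8, 31.6 and 31.1 for only 8 others. The KRAB genes were therefore lower in each list also where little of the promoter is repeated. The number of fingers, with a median of 11 in clustered and 9 in isolated members and up to 33 in Zfp619, followed the fold percentile weakly, with Spearman coefficients of −0.05, −0.20 and −0.09 over 168 genes. The finger pattern was absent from 9 proteins, Zfp703 and Zfp750 among them.

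The largest cluster, Zfp677 to Zfp946 (chromosome 17, 21383748 to 22456689), held 13 KRAB genes. Their median fold percentile was 50.9, 28.6 and 47.3, and 7, 1 and 3 of them stood above 50. Zfp946 was the highest in NG and HG+NT, at 97.6 and 82.9, and stood at 64.7 in HG+miR-93, with pileups of 9.38, 5.97 and 5.05 fragments. Zfp760 stood at 15.2, 2.86 and 3.01, low in each list although all of its promoter 36-mers are single. Zfp947 stood at 81.3, 14.2 and 32.3, with 4.91, 2.60 and 2.53 fragments. Zfp994 stood at 15.9, 11.3 and 79.8, with 4.47, 3.64 and 5.44 fragments. Zfp983 stood at 60.2, 19.4 and 7.26, Zfp948 at 60.2, 25.6 and 31.2, and Zfp677 at 45.3, 49.2 and 28.3. Zfp820 stood at 33.5, 22.9 and 69.3, and Zfp995 at 62.7, 46.0 and 49.8. The pair Zfp942 and Zfp943 stood at 5.48, 38.2 and 49.8, and the pair Zfp944 and Zfp758 at 50.9, 28.6 and 47.3. Summits lay within 500 nt of a start for 10, 13 and 12 of the 13 genes. The summit of Zfp995 lay 11345 nt away in HG+miR-93, so that value is not one of its promoter. In NG the summits of Zfp942, Zfp944 and Zfp758 lay 564, 1147 and 1200 nt away. For each of the 13 genes the pileup intervals of the 3 lists overlapped.

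**Figure D3:**
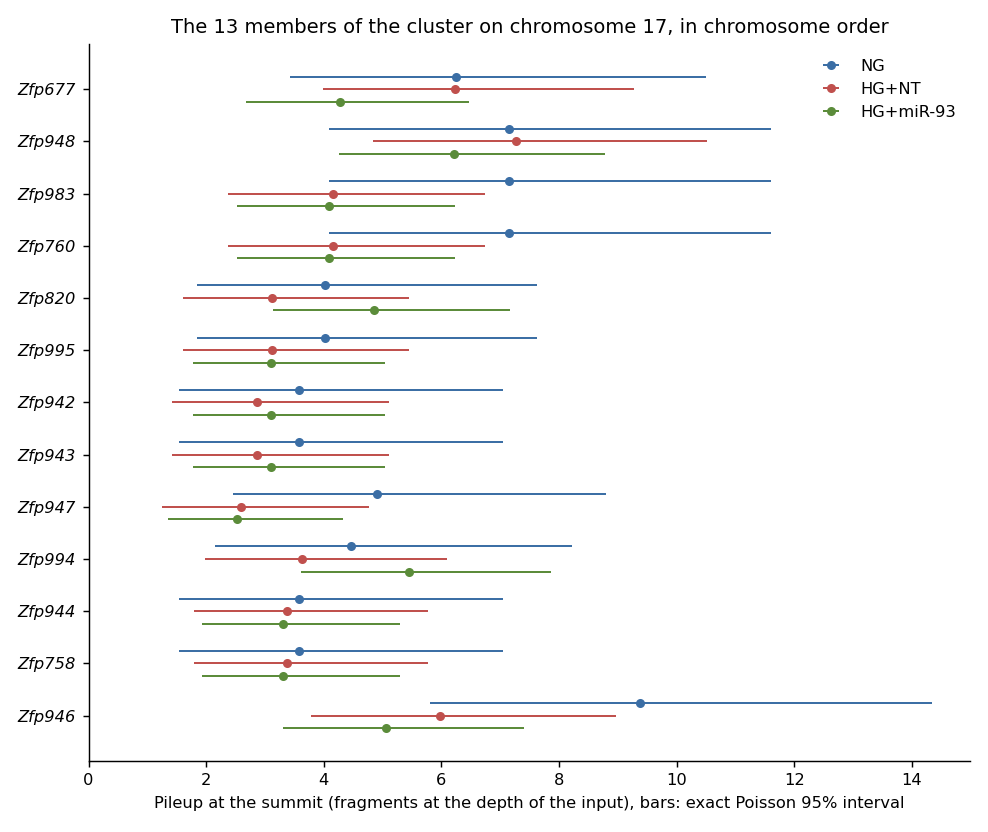
Pileup at the summit of the strongest promoter peak (x axis, fragments at the depth of the input) for the 13 members of the chromosome 17 cluster, in chromosome order, with exact Poisson 95% intervals for counting error. NG is drawn in blue, HG+NT in red, HG+miR-93 in green. The 3 intervals overlap in every gene, and Zfp946 has the highest value in NG at 9.38. The summit of Zfp995 in HG+miR-93 lies 11345 nt from a start.

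Medians of the other clusters differed. The 9 genes from Zfp989 to Zfp933 on chromosome 4 had medians of 62.7, 24.4 and 14.4, and their median share of single 36-mers was 26.9%. The 5 genes from Zfp990 to Zfp600, also on chromosome 4, were low throughout at 23.6, 17.1 and 12.5, with a share of 12.8%. The 7 genes from Zfp771 to Zfp629 on chromosome 7 had 56.3, 56.96 and 29.4 with a share of 99.03%, low only in HG+miR-93. Their highest promoter pileup had a median of 8.93, 6.23 and 4.86 fragments. The 6 genes from Zfp712 to Zfp738 on chromosome 13 had 59.0, 21.9 and 47.9, and the 6 from Zfp871 to Zfp763 on chromosome 17 had 65.7, 20.8 and 40.4. The 4 genes from Zfp786 to Zfp746 on chromosome 6, none with the KRAB pattern, had 68.3, 72.6 and 77.8. The 5 genes from Zfp868 to Zfp866 on chromosome 8 had 53.4, 88.5 and 68.4.

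Members on chromosomes 8, 15 and 19 stood high in the high-glucose lists, as did other genes there. Their 24 members had medians of 52.2, 77.2 and 68.4, against 53.7, 72.8 and 73.8 for the 2533 genes on these chromosomes. The 16 members of chromosome 8 had 52.2, 76.2 and 66.9 and the 7 of chromosome 15 had 46.4, 93.2 and 94.7. Outside these chromosomes the 96 clustered members had 46.0, 30.9 and 32.3 and the 50 isolated ones 52.5, 42.5 and 34.7, so the gap in HG+miR-93 was smaller there. A change in copy number of these chromosomes between the cultures was not tested.

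From NG to HG+NT, the contrast of high glucose with mimic against normal glucose, 31 members rose by 25 percentile points or more (21 clustered and 10 isolated) and 40 fell by as much (31 and 9). Of all genes, 19.5% rose and 20.6% fell by this rule. The 18.2% of members that rose and the 23.5% that fell both lay near that background, and among those that fell were 29.0% of the clustered and 14.3% of the isolated members. Ranked by pileup, 7 of 170 members rose and 21 fell, beside 6.77% and 5.77% of all genes, so by that measure the falls lay above the background. By the fold percentile, 22 of 102 members with 90% or more single 36-mers rose and 19 fell, beside 20.04% and 21.01% of all such genes. With summits within 500 nt 26 of 114 rose and 26 fell, beside 19.22% and 19.76% of all genes. Falls by fold percentile thus did not outnumber rises under every choice. Falls ranked by pileup were not counted under these choices. The median change was −4.86 points for clustered members, −0.67 for isolated members and −0.37 for all genes. Among members with a summit within 500 nt in all 3 lists, Zfp637 rose most, from 15.2 to 75.7, with 7.15 and 7.53 fragments. Its pileup was thus almost level, and the input mean at the summit was 5.0 in NG and 3.0 in HG+NT. Zfp647 went from 40.6 to 97.4 with 5.81 and 10.4 fragments, and Zfp623 from 44.3 to 97.5 with 9.83 and 12.98 fragments, both on chromosome 15. Zfp953 fell most, from 87.3 to 8.81 with 8.49 and 4.42 fragments, Zfp712 from 79.4 to 5.07 with 6.70 and 5.71, and Zfp609 from 90.9 to 21.2 with 10.3 and 5.71. In all of these the pileup intervals overlapped.

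From HG+NT to HG+miR-93, the contrast of the miR-93 mimic with the nontargeting mimic, 21 members rose (17 clustered and 4 isolated) and 27 fell (20 and 7). Of all genes, 16.1% rose and 16.1% fell, and of the members 12.4% and 15.9%, so neither count stood above the background by this measure. Ranked by pileup, 7 rose and 9 fell, beside 2.67% and 2.81% of all genes, both above that background though few. The median change of the fold percentile was −0.56 points for clustered and for isolated members and −0.08 for all genes. Zfp712 went back from 5.07 to 91.2 with 5.71 and 6.80 fragments, Zfp994 went from 11.3 to 79.8, and Zfp629 from 15.8 to 64.7 with 5.19 and 5.05 fragments. Zfp988 fell from 94.2 to 14.4 with 5.71 and 3.69 fragments, Zfp958 from 95.8 to 24.9 with 8.31 and 7.19, and Zfp688 from 75.5 to 5.21 with 6.23 and 4.66. The percentile of Zfp712 swung over most of the scale while its pileups lay between 5.71 and 6.80 fragments, with an input mean of 2.2, 6.0 and 2.2 at the 3 summits. For Zfp712 and Zfp629, and for Zfp637 in the comparison before, a wide change in percentile thus came with a small difference in fragments.

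**Figure D4:**
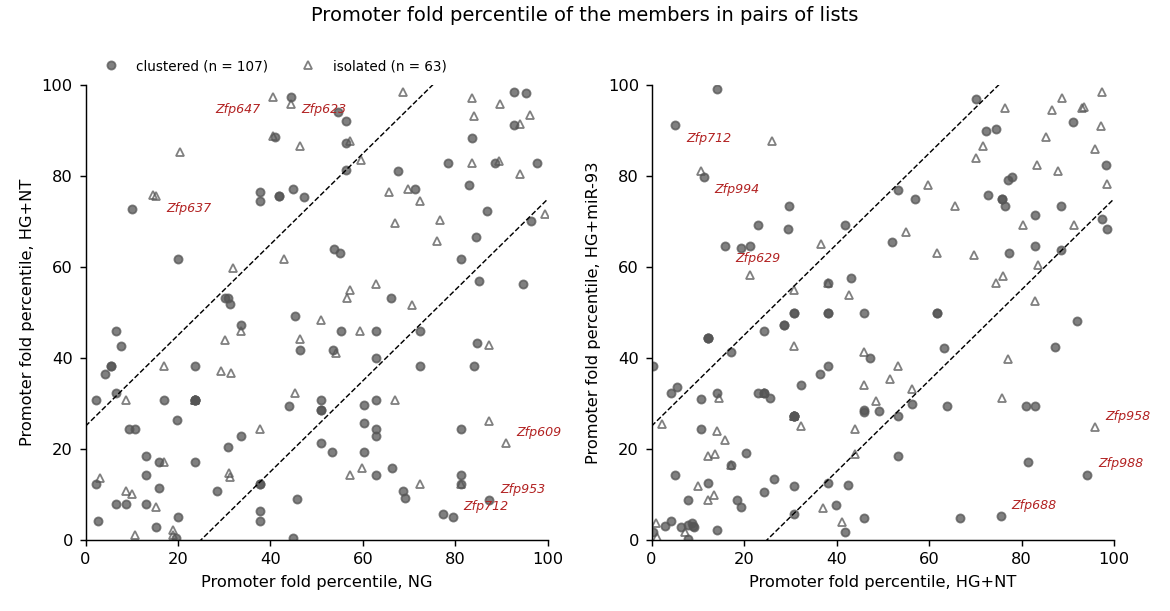
Promoter fold percentile of the 170 members in HG+NT against NG (left) and in HG+miR-93 against HG+NT (right), filled for clustered and open for isolated genes. Dashed lines mark a change of 25 points, past which 31 members rose and 40 fell on the left and 21 rose and 27 fell on the right; the named genes are the 3 largest rises and 3 largest falls among members with a summit within 500 nt in all lists.

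From NG to HG+miR-93, 30 members rose (19 clustered and 11 isolated) and 42 fell (30 and 12), or 17.6% and 24.7% of members against 20.6% and 21.4% of all genes. Ranked by pileup, 10 rose and 30 fell, beside 6.94% and 6.72% of all genes, so by that measure the falls lay above the background. By the sum of the folds of a promoter's peaks 25 rose and 21 fell, beside 13.17% and 13.08% of all genes. Which of the counts is larger thus depended on the measure. The median change of the fold percentile was −5.54 points for clustered, −3.76 for isolated members and −0.54 for all genes. This comparison shares its lists with those above, and all of them share the input.

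By the second rule, that the pileup intervals of the strongest peak do not overlap, few members differed between lists. In HG+NT 1 member was higher than in NG and 1 was lower, against 0.749% and 1.71% of all genes. In HG+miR-93 1 member was higher than in HG+NT and 2 were lower, against 0.445% and 1.99%. In HG+miR-93 0 members were higher than in NG and 6 were lower, against 0.349% and 3.39%. The members named for this rule were seen before they were chosen. Zfp639, which rose from 4.47 (2.14 to 8.21) in NG to 12.98 (9.64 to 17.1) in HG+NT, already had a higher promoter pileup of 10.3 in NG under another of its peaks. Zfp975 fell from 6.25 (3.42 to 10.5) in NG to 1.30 (0.422 to 3.03) in HG+NT, where its highest promoter pileup was 3.38. Zfp978, in the chromosome 4 cluster, rose from 2.60 (1.25 to 4.78) in HG+NT to 6.996 (4.90 to 9.69) in HG+miR-93, but both summits were over 10000 nt from its starts. The strongest peak of these genes was thus not the same site in the lists compared. The same held for Zfp787 and Zfp868, which fell from 13.8 to 4.28 and from 18.7 to 5.05 between HG+NT and HG+miR-93 with summits 2117 and 5346 nt from a start in the latter, and whose highest promoter pileups there were 9.91 and 14.2. From NG to HG+miR-93 they were joined by Zfp775, Zfp950, Zfp689 and Zfp871. For Zfp689 and Zfp871 the highest promoter pileup also fell, from 12.1 to 4.86 and from 10.3 to 4.47 fragments, with summits within 500 nt in both lists. For Zfp775 the highest promoter pileup went from 11.6 to 6.41 and for Zfp950 from 8.04 to 6.61, so only part of the listed falls lay at the start sites.

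Members with a well known function beyond the family's usual role were described by name. Zfp687, part of a chromatin complex with Zmynd8, had 15.2, 13.2 and 12.4 fragments and percentiles of 76.8, 70.3 and 83.9. Zfp746, or PARIS, a repressor of PGC-1α that is removed through Parkin, stood at 82.8, 78.0 and 79.8. Zfp653, which represses the nuclear receptor SF-1, stood at 71.1, 77.1 and 79.2. These genes were above the median gene in each list. Zfp703, a corepressor of the NET family, had 11.2, 16.1 and 13.4 fragments and percentiles of 14.5, 76.0 and 58.1, with its summit 597 to 619 nt before a start in each list. Zfp827, which brings the NuRD complex to telomeres, stood at 65.7, 76.4 and 95.03, and Zfp668, linked to p53 and DNA repair, at 41.8, 75.7 and 75.1. Zfp703 and Zfp827 lie on chromosome 8. The summit of Zfp827 lay 1276 nt from a start in NG and 1420 nt away in HG+miR-93. That of Zfp746 lay 3402 nt away in HG+miR-93, and that of Zfp687 545 nt away in HG+NT. Zfp639 stood at 59.5, 83.6 and 60.5.

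Others of this group stood lower after NG or throughout. Zfp609, a partner of Nipbl and the Integrator complex, stood at 90.9, 21.2 and 58.4, and its relative Zfp608, which represses the Rag genes in thymocytes, at 18.97, 2.26 and 25.5. Zfp644, a partner of the histone methyltransferases G9a and GLP, stood at 66.9, 30.9 and 42.6, and Zfp628 at 77.4, 5.58 and 33.7. Those 4 had their lowest value in HG+NT, but not all of the values came from summits near a start. The summit of Zfp644 lay 2000 nt from a start in HG+NT. That of Zfp608 lay 1202 nt away in NG, and that of Zfp628 3187 nt away in HG+miR-93. Zfp618, which binds hydroxymethylated DNA, stood at 46.4, 44.1 and 24.4, Zfp750, a driver of epidermal differentiation, at 70.7, 51.6 and 35.5, and Zfp830 at 30.95, 14.7 and 31.2. The KRAB genes known to silence endogenous retroviruses were at or below the median gene by fold: Zfp809 stood at 19.8, 26.4 and 13.4, and Zfp932 at 50.9, 30.9 and 11.9. By pileup they differed, with 10.7, 8.83 and 6.996 fragments for Zfp809, where the input mean was 7.0, 6.0 and 6.0, and 3.57, 2.60 and 3.498 for Zfp932, only 36.5% of whose promoter 36-mers are single. Low fold at Zfp809 therefore stood beside a high input and many fragments. The summit of Zfp932 lay 1071 nt from a start in NG and 5965 nt away in HG+NT. That of Zfp750 lay 547 nt away in NG. Of these 16 genes, Zfp639 alone had intervals that did not overlap between NG and HG+NT.

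**Figure D5:**
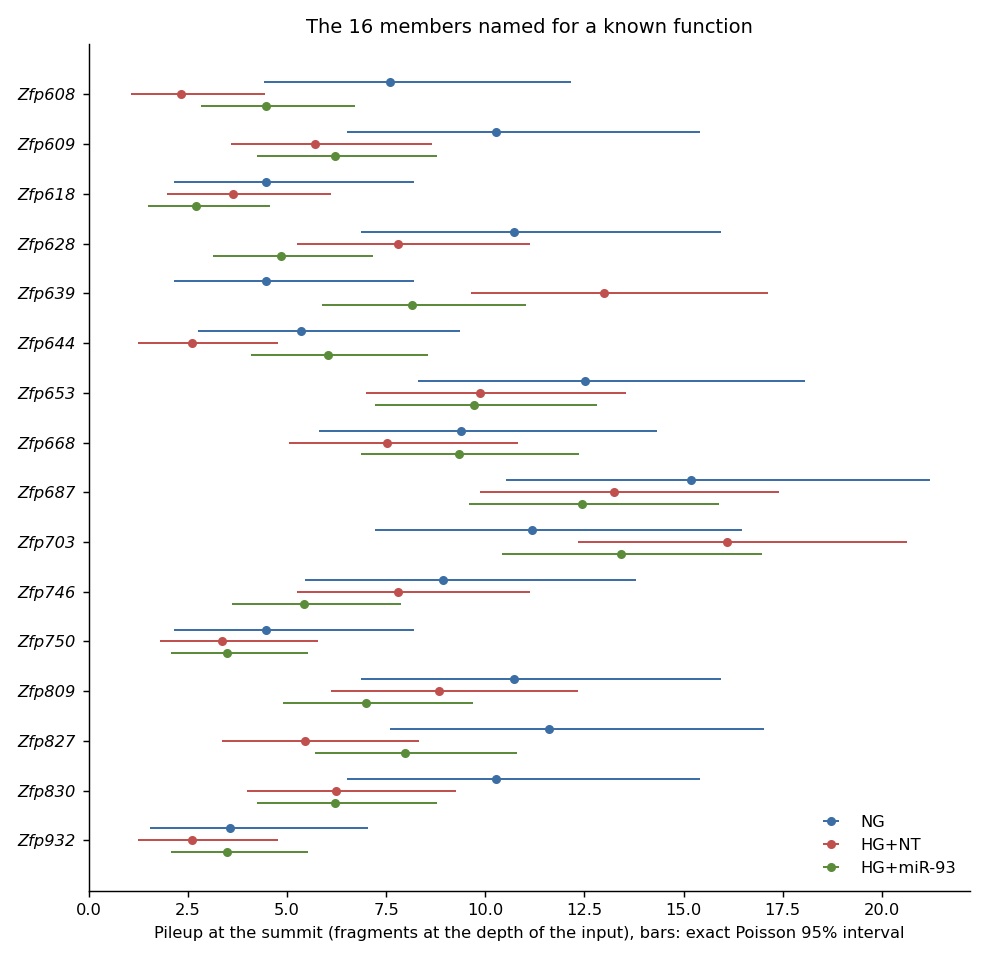
Pileup at the summit of the strongest promoter peak (x axis, fragments at the depth of the input) for the 16 members named for a known function, with exact Poisson 95% intervals. NG is drawn in blue, HG+NT in red, HG+miR-93 in green; Zfp687 and Zfp703 are high in each list, with 15.2 and 11.2 fragments in NG, and the NG and HG+NT intervals are apart only for Zfp639.

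The most accessible members by mean percentile were Zfp622, Zfp964 and Zfp715. Zfp622 (chromosome 15, 25984366 to 25998481), the counterpart of yeast Rei1 in maturing the large ribosomal subunit, stood at 96.1, 93.4 and 95.1 with 12.5, 10.4 and 10.1 fragments, and its summits lay within 167 nt of its start. Zfp964 (chromosome 8, 69654479 to 69666982) stood at 95.3, 98.2 and 82.5, and Zfp715 (chromosome 7, 43296197 to 43313294) at 92.6, 91.1 and 91.9. The last 2 are clustered KRAB genes, so high values were also found in that class. The lowest were Zfp992 at 2.65, 4.10 and 4.2, Zfp960 at 10.8, 1.11 and 0.602, and Zfp972 at 8.69, 7.83 and 3.15. Their promoters had 40.5%, 51.0% and 23.8% single 36-mers, and the summit of Zfp972 was at least 17977 nt away.

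A stricter set asked for a summit within 500 nt of a start among the 20000 strongest peaks of a list. It held 50, 31 and 19 members, or 29.4%, 18.2% and 11.2%, against 29.3%, 20.1% and 15.1% of all genes. Members were thus at the background in NG and below it in HG+miR-93. The clustered members went from 31 to 17 to 8 (29.0%, 15.9% and 7.48%) and the isolated from 19 to 14 to 11 (30.2%, 22.2% and 17.5%). In all 3 lists it held 9 members: Zfp622, Zfp653, Zfp654, Zfp655, Zfp664, Zfp715, Zfp740, Zfp846 and Zfp964, of which 3 were clustered and 6 isolated. It held 20 members in 2 lists, 33 in 1 list and 108 in 0 lists. Zfp846 stood at 99.3, 71.6 and 86.6, the highest of all members in NG.

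The partners through which KRAB proteins act were read from a list of 20 genes, 19 of which had a value in each list. By the rule of 25 points, 2 rose and 3 fell from NG to HG+NT, 1 rose and 5 fell from HG+NT to HG+miR-93, and 3 rose and 5 fell from NG to HG+miR-93. Over all genes the shares by this rule, given above, lie between 16.1% and 21.4%, and nothing is read from counts this small over 19 genes. Trim28 itself stood at 78.6, 28.1 and 10.1, with 15.6 (10.9 to 21.7), 10.7 (7.64 to 14.4) and 8.75 (6.38 to 11.7) fragments, intervals that overlap. The intervals were apart for 3 genes of the list, named after their values were seen. In the first comparison 0 were higher and 2 lower, in the next 0 higher and 1 lower, and in the last 0 higher and 2 lower. Over all genes the shares apart were 0.749% higher and 1.71% lower, then 0.445% and 1.99%, then 0.349% and 3.39%. Atf7ip, which encodes a partner of Setdb1, had 13.85 (9.41 to 19.65), 4.67 (2.77 to 7.39) and 4.47 (2.83 to 6.71) fragments, the last 2 below the first. Its highest promoter pileup still ranked at the 96.4, 89.9 and 81.9 percentile over the 3 lists. Cbx5, which encodes a heterochromatin protein, had 20.99 (15.4 to 27.9), 20.5 (16.2 to 25.6) and 6.02 (4.09 to 8.55), although its highest promoter pileup still ranked at the 99.1 percentile in HG+miR-93. Setdb1 went from 93.5 to 38.2 and 3.71, with 6.25, 2.86 and 2.53 fragments and 64.8% single 36-mers. Fam208a (TASOR), of the HUSH silencing complex, went from 74.1 to 14.2 and 10.7. It had 8.93 (5.46 to 13.8), 2.60 (1.25 to 4.78) and 5.64 (3.77 to 8.09) fragments, with a summit 1242 nt from its start in HG+NT. Its partner Pphln1, on chromosome 15, went from 11.2 to 82.3 and back to 13.4, with 9.38, 7.27 and 6.996 fragments. The pileup of Pphln1 was thus lower in HG+NT than in NG while its percentile was higher. The DNA methyltransferase gene Dnmt3b went from 4.74 to 65.1 and 36.5, with 4.47, 5.71 and 5.05 fragments. For Pphln1 and for Dnmt3b the pileup intervals of the 3 lists overlapped. The heterochromatin protein genes differed among themselves, Cbx3 standing at 99.1, 86.9 and 96.5 and Cbx1 at 18.97, 13.1 and 5.31. The median change of the 19 genes was −1.38, −2.94 and −2.64 points over the 3 comparisons, against −0.37, −0.08 and −0.54 for all genes.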

How the data were processed

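DNase-seq was done on 6 podocyte libraries, 2 per condition, with 1 input of DNase-digested genomic DNA. The submitters' processing notes name CASAVA 1.8.2, Bowtie and MACS2. As the study's methods describe, single reads of 36 cycles were trimmed with TrimGalore!, mapped to mm10 with Bowtie, freed of duplicates and given to MACS2 with the input as control. The treatment of reads with several matches and the MACS2 version and cutoff are not given in the sources used here. The deposited narrowPeak lists, 1 per condition with the replicates pooled, hold for each peak a score, the fold over the input as a ratio, −log10 of the p-value and −log10 of the q-value at the summit, all as the authors' run of MACS2 wrote them. NG was 2.24 times as deep as the input, HG+NT 3.85 times and HG+miR-93 5.15 times, and the largest p-value kept was 0.900.

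Fragments and the local input mean (in steps of 0.02) were solved from fold and −log10 p, with 1 solution for at least 99.8% of the peaks of each list and for all 170 members. Each gene took its highest-fold peak overlapping 500 nt either side of a start, ranked over 21835 genes with a peak in every list (20706 on chromosomes 1 to 19) of 21853 genes and 54361 starts. Promoter 36-mers were counted over the whole genome, fingers and the KRAB pattern in translated GENCODE coding sequences, and motifs in RefSeq promoters. Symbols with a letter after the digits (11 genes) and 1 gene on chromosome X were not members. Some cell type markers are not reported here. The steps were tested on simulated data.

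Genes named were those of known function, the 3 highest and 3 lowest by mean percentile, the 3 largest rises and falls between consecutive lists among members with summits within 500 nt in every list, and the largest cluster. Members, lists and rules were chosen with earlier results of these data known. With 1 list per condition no test was made: a change was called at 25 percentile points, or where exact Poisson 95% intervals did not overlap, and reads without molecular identifiers are not independent molecules. The work used Python 3.11.15 with biopython 1.88, numba 0.67.0, scipy 1.17.1, pandas 2.3.3, matplotlib 3.10.9 and numpy 2.4.6.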

Additional observations from a re-analysis of the deposited data

How the results depend on the processing

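No paired analysis was possible because each condition has 1 pooled list, and no replicate could be left out for the same reason. With 6 to 12 unscaled fragments at a median summit, differences between single promoters are mostly within counting error. Over 13 settings and 3 lists the isolated median lay above the clustered one in 36 of 39 comparisons. It was lower by −0.20 points in HG+miR-93 with folds taken over the chromosome's median promoter and by −0.44 points in NG with neighbours within 100 kb, and level (0.0) in NG when peaks were ranked by −log10 p. Without chromosomes 8, 15 and 19 the gap over the 3 lists, in the order of the report, was 6.61, 12.1 and 2.48 points, and with 90% or more single 36-mers 0.964, 9.84 and 8.33. With only summits within 500 nt of a start it was 7.87, 5.11 and 6.09 points, and by the sum of folds 9.84, 4.18 and 9.52. All settings use the same lists, so they are not independent. The cause of the gap was not tested. Of 72 medians of the classes, 65 moved by less than the spread. The others were clustered members in HG+miR-93 ranked by −log10 p (29.3), isolated members in HG+miR-93 ranked by pileup (64.8), clustered members by the sum of folds in HG+NT and HG+miR-93 (51.0 and 48.6), and clustered members with 90% or more single 36-mers (56.3, 51.9 and 49.8).

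The number of members changed by 25 points depended on the measure. Counts are given of 170 members unless stated. Ranked by pileup, 7 rose and 21 fell from NG to HG+NT (6.77% and 5.77% of all genes), 7 rose and 9 fell from HG+NT to HG+miR-93 (2.67% and 2.81%), and 10 rose and 30 fell from NG to HG+miR-93 (6.94% and 6.72%). By this ranking the share of members that fell lay above that of all genes in each comparison. The share that rose lay above it only from HG+NT to HG+miR-93. From NG to HG+NT the median change of the pileup rank differed with repeated sequence. Under 90% single 36-mers it was −6.385 points for 56 clustered and −19.75 for 12 isolated members. At 90% or more it was −1.54 for 51 clustered and 4.41 for 51 isolated members. With summits within 500 nt (114 members), 26 rose and 26 fell from NG to HG+NT (19.22% and 19.76% of all genes). From NG to HG+miR-93 14 rose and 24 fell (19.49% and 20.43%). By the sum of folds, 21 rose and 23 fell from NG to HG+NT (12.95% and 13.17% of all genes). From NG to HG+miR-93 25 rose and 21 fell (13.17% and 13.08%), so that the larger count turned from falls to rises. With 90% or more single 36-mers (102 members), 22 rose and 19 fell from NG to HG+NT, 21 rose and 23 fell from NG to HG+miR-93, and 10 rose and 19 fell from HG+NT to HG+miR-93. At 15 points 40 rose and 46 fell from HG+NT to HG+miR-93 (25.28% and 25.66% of all genes). The counts at 40 points follow the order of the report. They were 11 up and 21 down (10.34% and 10.63%), 10 up and 11 down (7.264% and 7.215%), and 14 up and 20 down (10.58% and 11.2%). Among the 50000 strongest peaks, 56, 51 and 46 members had a summit at a start over the 3 lists, near the 31.2%, 33.5% and 28.7% of all genes, and among the 5000 strongest 26, 17 and 7 did, beside 17.5%, 11.96% and 7.85% of all genes. Of the alternatives, the split of the pileup by single 36-mers, the counting of each shared peak once and the omission of isolated members with a near-identical promoter were chosen after seeing the data, and the last left a gap of 7.71, 19.2 and 17.3 points.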
